A study of Rattus norvegicus with 6 samples.

Results

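The Hox cluster genes were followed in poly(A) RNA sequencing of primary nucleus pulposus cells, which come from the gelatinous core of the intervertebral disc. They were taken as every gene row whose symbol is Hoxa, Hoxb, Hoxc or Hoxd with a paralogue number, and 33 of 19088 gene rows met this rule. The 33 rows carry 32 symbols, since Hoxa11 stood on 2 rows with different gene identifiers, which were kept apart. The cells came from rats whose strain is labelled SD. The rShh group (n = 3) had been given recombinant Sonic hedgehog, the ligand of the Hedgehog pathway, dissolved in DMSO, at 200 ng/ml for 48 h, and the Control group (n = 3) had been given DMSO. All 6 samples were grown in DMEM/F12 with fetal bovine serum, and the series holds a single dose and a single time. The labels do not say whether replicates are separate animals or cultures, so the p-values speak only to the spread among these 6 samples, and that spread may be technical.

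Hox genes encode homeodomain transcription factors that lie in 4 clusters in mammals, HoxA to HoxD. Within a cluster the genes follow each other in order of paralogue number, and that order matches the order in which they are used along the head-to-tail axis of the embryo, low numbers towards the head and high numbers towards the tail and the tips of the limbs. Cells of the trunk keep part of this code in culture, and Hox proteins bind DNA with TALE partners such as Pbx and Meis. In the limb bud, Sonic hedgehog signalling is known to act upstream of the high-numbered HoxD genes.

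The 33 rows were 7 of HoxA (chr4:82125406-82300503 in the deposited coordinates, whose genome build is not given in the sources used here), 9 of HoxB (chr10:84031955-84202688), 9 of HoxC (chr7:144531814-144650129) and 8 of HoxD (chr3:61590376-61670282). Counts were present in all 6 libraries for 31 rows. Hoxa2 had no count in rShh replicate 1, which allows up to 0.0465 CPM there (CPM are counts scaled to library size). Hoxd12 had 2 counts in rShh replicate 1 and none in the other 5 libraries, failed the filter on low counts and was not tested. Counts of 0 allow up to 3 counts, and such limits cover counting error only.

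Levels of different genes were set side by side only in FPKM, a fragment count scaled to gene length and library size. Model lengths differed, for example 657 nt in Hoxa13 and 843 nt in Hoxc12 against 2483 nt in Hoxd13. Whether the short models leave out parts of the transcript was not checked, so FPKM of different genes compare only roughly. High paralogue numbers held most of the signal. Rows numbered 9 to 13 summed to 155 ± 10.3 FPKM (SD, n = 3) in Control, or 81.8% ± 1.39 of the FPKM of all 33 rows, against 18.6 ± 1.02 FPKM for numbers 5 to 8 and 15.9 ± 3.98 FPKM for numbers 1 to 4. Hoxc12 had the highest mean level of a single row, at 27.9, 35.2 and 36.4 FPKM in Control replicates 1 to 3. The Hoxa11 row with the 942-nt gene model followed at 27.1, 28.9 and 29.7 FPKM, a range that overlapped that of Hoxc12. The Hoxa11 row with the 2247-nt model stood at 24.8, 25.5 and 25.2 FPKM, just under both. These 3 rows made up 36.6% to 46.8% of the summed FPKM of the 33 rows in a library. Reads of Hoxa11 can be split over its rows, so this order of rows need not be the order of the genes. Hoxb9 came next at 13 to 13.6 FPKM in Control, then Hoxc10 at 10.9 to 12.5, and Hoxc11 at 7.64 to 12.7 overlapped Hoxc10, Hoxa13 (7.74 to 9.30) and Hoxb2 (5.22 to 9.50). In all, 5 rows had a mean of at least 10 FPKM over the 6 libraries, 18 lay from 1 to under 10 and 10 lay under 1 FPKM.

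**Figure D1:**
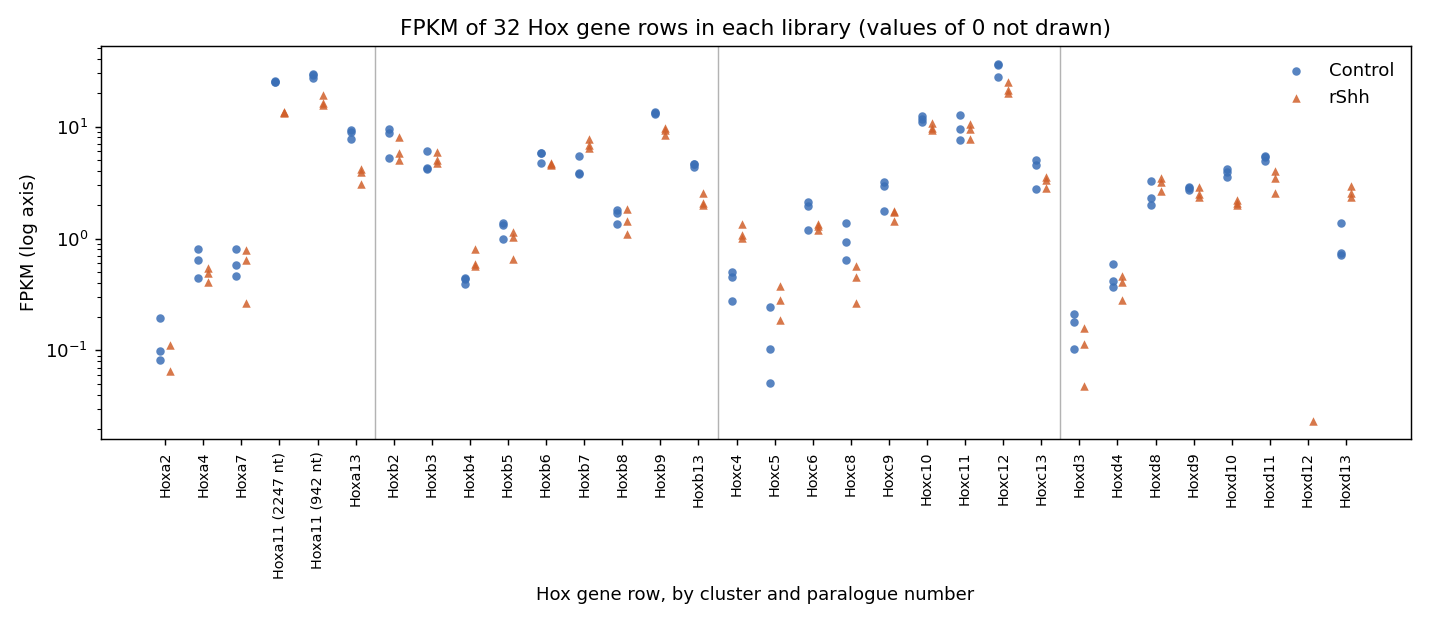
FPKM on a log axis for 32 of the Hox rows, by cluster and paralogue number, with circles for the 3 Control and triangles for the 3 rShh libraries, and values of 0 left out. The highest points belong to Hoxc12 and to both Hoxa11 rows, and in Hoxd13 all rShh points lie above all Control points.

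The summed Hox signal was lower in the rShh libraries. It came to 173, 200 and 195 FPKM in Control replicates 1 to 3 and to 136, 136 and 139 FPKM in rShh replicates 1 to 3, so the groups did not overlap. The difference lay in the high paralogue numbers: numbers 9 to 13 summed to 143, 160 and 161 FPKM in Control and to 103, 98.7 and 105 FPKM with rShh, a ratio of 0.66. Numbers 1 to 4 (ratio 0.964) and 5 to 8 (ratio 1.06) differed less, and the share of numbers 9 to 13 was 74.4% ± 1.77 with rShh. By cluster, the rShh to Control ratio of summed FPKM was 0.557 for HoxA, 0.76 for HoxC, 0.864 for HoxB and 0.89 for HoxD. HoxA carried 34.3% ± 1.82 of the summed FPKM of the 33 rows in Control and 26.3% ± 1.94 with rShh. These sums leave out 9 rows described as HoxA genes without a Hox symbol, which came to 57.0 ± 3.39 FPKM in Control and 39.2 ± 1.44 FPKM with rShh. With them added, an alternative chosen after seeing the data, HoxA carried 49.6% ± 2.85 in Control and 42.7% ± 1.76 with rShh, and the ratio for numbers 9 to 13 was 0.66 as before. These sums are descriptions without a test, and in bulk samples fewer cells of a type and less RNA per cell cannot be told apart.

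**Figure D2:**
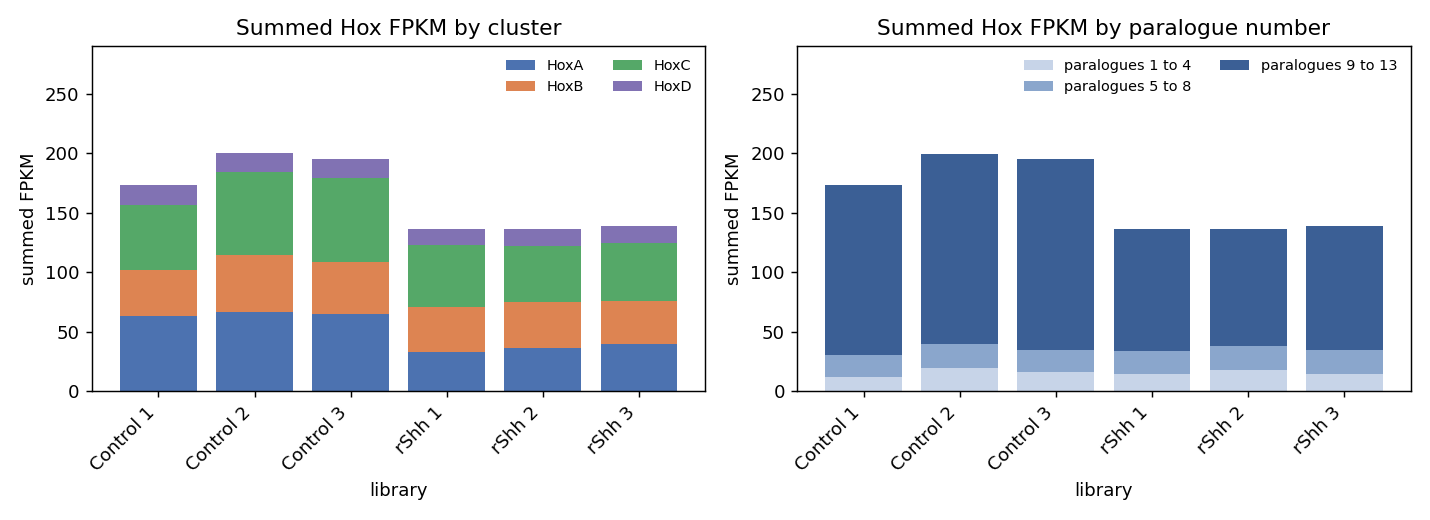
Summed FPKM of the Hox rows in each of the 6 libraries, stacked by cluster on the left and by paralogue number on the right, with bars from 0. The rShh bars reach 136 to 139 FPKM and the Control bars 173 to 200, and most of the gap lies in the segment of paralogues 9 to 13.

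Of the 32 rows tested with edgeR's quasi-likelihood test at an adjusted p of 0.05, 3 were higher and 11 were lower with rShh, and 18 did not pass. The treatment groups differed at much of the transcriptome: 60.3% of all genes tested passed, 31.5% higher and 28.8% lower. Against that background, 43.8% of the Hox rows passed, 9.38% higher and 34.4% lower, so the share of lower calls was near the background and that of higher calls was under it. The median log2 change was -0.34 over the Hox rows (range -1.23 to 1.46) and 0.01 over all genes tested. The groups did not overlap in 15 Hox rows, 4 with rShh above and 11 with rShh below, against 68.1% of all genes (35.7% above and 32.5% below). These 15 are the 14 called rows and Hoxb4.

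The calls were unevenly placed along the clusters. Among rows numbered 9 to 13, 10 of 14 tested were lower (71.4%) and 1 was higher (Hoxd13, 7.14%). Over all genes tested, 28.8% were lower and 31.5% higher. Hoxc11, Hoxc13 and Hoxd9 were without a call, and the median log2 change of rows 9 to 13 was -0.64. Their lower rows include both Hoxa11 rows, whose reads can be split between them. They also include Hoxc9 and Hoxc10, which lost their calls under some alternatives. Among rows numbered 1 to 8, 1 of 18 was lower (Hoxc8, 5.56%), 2 were higher (Hoxc4 and Hoxb7, 11.1%) and 15 were without a call. Their median log2 change was -0.19, and Hoxc8 also lost its call under some alternatives. Precision differed between these sets as well. The median level was 5.24 FPKM and the median standard error of the log2 change 0.15 for numbers 9 to 13, against 0.905 FPKM and 0.30 for numbers 1 to 8, and the part of level in the uneven counts was not tested. Across the 32 rows, which share 6 libraries, log2 change and paralogue number had a Spearman correlation of -0.31. By cluster it was -0.59 in HoxA, -0.42 in HoxB and -0.33 in HoxC, but 0.11 in HoxD.

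**Figure D3:**
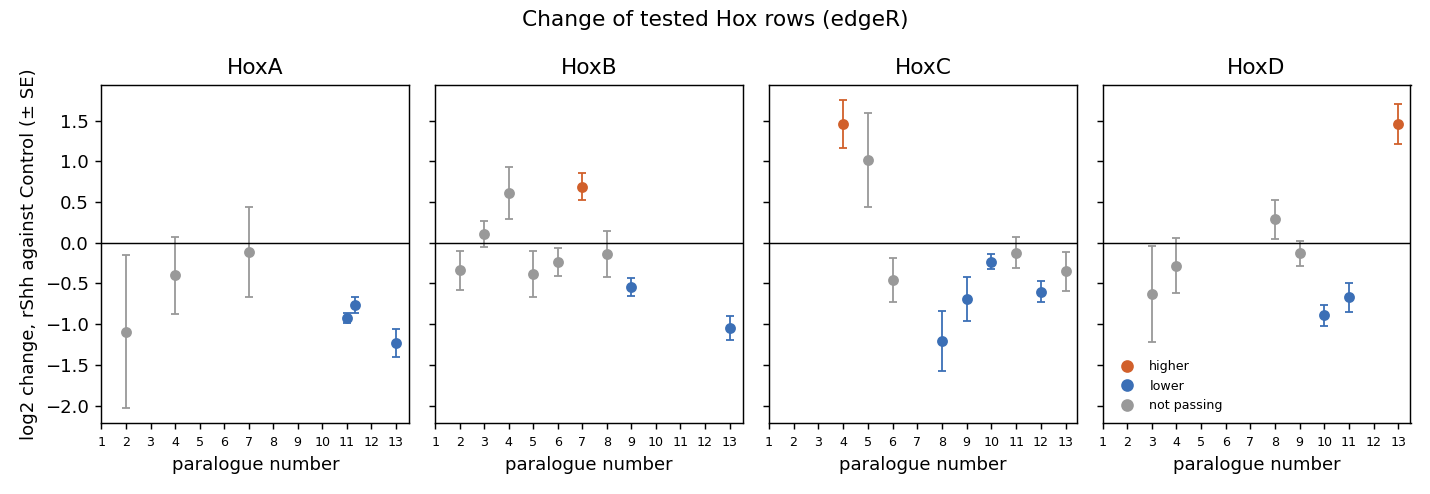
Log2 change of tested Hox rows with rShh against Control (edgeR, bars ± SE) by paralogue number, in a panel per cluster, with rows that passed at an adjusted p of 0.05 in orange (higher) or blue (lower) and the rest in grey. At paralogue numbers 9 to 13 all called points lie under 0 except Hoxd13, at 1.46.

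Within HoxD, Hoxd13 rose while Hoxd11 and Hoxd10 fell, and Hoxd12, which lies between Hoxd13 and Hoxd11, was too low to test. Hoxd13 (chr3:61590376-61593692), which patterns the digits and the hindmost embryo, was at 2.07, 2.24 and 4.14 CPM in Control replicates 1 to 3 and at 8.84, 7.46 and 6.95 CPM in rShh replicates 1 to 3. Every rShh library was above every Control library, and Control replicate 3 was the nearest. The log2 change was 1.46 ± 0.25 (SE; edgeR adjusted p = 6.24e-04). Hoxd11 (chr3:61604672-61606400), a limb and kidney patterning gene, fell from 6.31, 6.56 and 5.95 CPM to 3.07, 4.05 and 4.73 CPM, a log2 change of -0.67 ± 0.18 (edgeR adjusted p = 0.00919). Hoxd10 (chr3:61613774-61617367), its neighbour, fell from 9.42, 10.5 and 11.1 CPM to 5.43, 5.80 and 5.50 CPM, a log2 change of -0.89 ± 0.13 (edgeR adjusted p = 1.58e-04). In both, the groups were apart. In FPKM, Hoxd13 went from 0.943 ± 0.379 to 2.62 ± 0.293 and Hoxd11 from 5.24 ± 0.274 to 3.33 ± 0.740, so Hoxd11 was well above Hoxd13 in Control, while with rShh the ranges of the genes overlapped.

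The other HoxD rows did not pass. Hoxd9 was at 5.78, 6.28 and 6.17 CPM in Control and at 6.31, 5.00 and 5.32 CPM with rShh, with overlapping groups and a log2 change of -0.13 ± 0.15. Hoxd8 was at 3.25, 2.31 and 2.01 CPM and at 2.70, 3.15 and 3.45 CPM, also overlapping, at 0.29 ± 0.24. Hoxd4 (-0.28) and Hoxd3 (-0.63) were low, with means of 0.422 and 0.136 FPKM over the 6 libraries. Mir10b lies inside the Hoxd4 row, and the strand setting of the counting is not given in the sources used here.

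Promoter sequences, 250 bases before to 50 after the gene start, were taken from RefSeq (build GRCr8, not the coordinates of the deposited table) and matched 14 of the 32 symbols. Those of Hoxd13, Hoxd11 and Hoxd10 are shown because these genes of 1 cluster moved in opposite directions, Hoxc4 because it also rose, and Hoxa13 because it had the most negative log2 change. They lie on the plus strand at chr3:79977827-79978126 (Hoxd13), chr3:79992144-79992443 (Hoxd11), chr3:80001697-80001996 (Hoxd10) and chr7:136048809-136049108 (Hoxc4), and on the minus strand at chr4:82691652-82691951 (Hoxa13). Each is written 5′ to 3′ along the gene, and capitals mark matches, on either strand, to the core promoter element TATAAA, the Pbx-Hox composite element TGATTNAT or the Meis half-site TGACAG.
Hoxd13: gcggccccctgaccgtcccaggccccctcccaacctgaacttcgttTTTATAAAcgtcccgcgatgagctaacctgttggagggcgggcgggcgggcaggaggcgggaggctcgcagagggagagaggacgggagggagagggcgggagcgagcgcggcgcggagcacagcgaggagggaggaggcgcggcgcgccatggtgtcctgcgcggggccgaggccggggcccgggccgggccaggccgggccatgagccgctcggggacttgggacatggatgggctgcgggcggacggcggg
Hoxd11: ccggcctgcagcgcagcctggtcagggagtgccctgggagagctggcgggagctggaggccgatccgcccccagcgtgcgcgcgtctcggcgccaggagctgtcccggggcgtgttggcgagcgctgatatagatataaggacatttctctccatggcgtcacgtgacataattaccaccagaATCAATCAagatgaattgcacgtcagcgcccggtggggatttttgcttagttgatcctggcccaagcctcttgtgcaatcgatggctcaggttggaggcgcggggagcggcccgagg
Hoxd10: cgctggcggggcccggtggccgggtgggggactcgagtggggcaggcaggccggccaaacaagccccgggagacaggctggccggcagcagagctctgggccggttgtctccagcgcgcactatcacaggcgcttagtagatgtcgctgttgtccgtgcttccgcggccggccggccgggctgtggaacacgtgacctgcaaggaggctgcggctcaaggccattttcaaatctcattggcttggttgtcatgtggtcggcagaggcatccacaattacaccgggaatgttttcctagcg
Hoxc4: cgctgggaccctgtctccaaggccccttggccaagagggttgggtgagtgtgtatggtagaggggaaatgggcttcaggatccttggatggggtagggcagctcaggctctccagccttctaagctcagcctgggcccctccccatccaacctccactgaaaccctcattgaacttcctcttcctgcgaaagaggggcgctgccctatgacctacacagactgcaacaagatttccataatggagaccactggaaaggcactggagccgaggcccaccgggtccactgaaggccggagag
Hoxa13: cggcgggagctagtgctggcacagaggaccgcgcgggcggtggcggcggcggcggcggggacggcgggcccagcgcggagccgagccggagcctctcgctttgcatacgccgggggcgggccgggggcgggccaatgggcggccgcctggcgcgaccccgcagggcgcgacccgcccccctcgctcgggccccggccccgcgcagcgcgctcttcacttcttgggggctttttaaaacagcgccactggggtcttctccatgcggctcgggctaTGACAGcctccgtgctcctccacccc

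Among the 14 promoters, TATAAA was found only in that of Hoxd13, where the letters match on both strands and the matches overlap. It was present in 14.2% of the 33469 promoters of this length. TGATTNAT was in Hoxa2 and Hoxd11 (3.18% of all promoters), and TGACAG in Hoxa2, Hoxa4 and Hoxa13 (19.0%). CCAAT was in 8 of the 14 (37.5% of all), while TTTATNG (11.3% of all) and the GLI-binding letters GACCACCCA (0.385% of all) were not in these windows. All motifs were searched on both strands. The 14 promoters had a median of 24.5 CpG and 62.5% GC, against 7 CpG and 51.7% over all promoters, but they ranged from 6 CpG in Hoxc4 to 49 in Hoxd8 and from 44.7% GC in Hoxa2 to 79.0% in Hoxd8. These matches are descriptions of letters.

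In HoxA the high-numbered rows fell and none rose. The Hoxa11 row with the 2247-nt model (chr4:82211366-82215022), from a gene of forelimb and kidney development, was at 65.9, 68.7 and 68.1 CPM in Control and at 35.6, 35.6 and 35.5 CPM with rShh. Its replicates were tight and its groups far apart, with a log2 change of -0.92 ± 0.06 (edgeR adjusted p = 7.38e-07). The 942-nt Hoxa11 row (chr4:82298152-82300503) went from 30.2, 32.7 and 33.7 CPM to 17.6, 18.1 and 21.2 CPM, also apart, at -0.76 ± 0.10 (edgeR adjusted p = 6.91e-05). Hoxa13 (chr4:82228017-82229397), a gene of digit and urogenital development, went from 7.23, 7.10 and 6.13 CPM to 2.45, 3.19 and 3.09 CPM. Its log2 change of -1.23 ± 0.17 (edgeR adjusted p = 1.37e-04) was the most negative of the called rows.

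The low-numbered HoxA rows were weak. Hoxa2 (-1.09 ± 0.94), Hoxa4 (-0.40 ± 0.47) and Hoxa7 (-0.11 ± 0.55) did not pass, with adjusted p from 0.342 to 0.875 by edgeR. At errors of this size a moderate change in either direction was not detectable at this depth.

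The deposited table holds a stretch of HoxA in a repeated form, which limits what the HoxA values mean. For paralogues 5, 7, 9, 10 and 11 there were 2 rows each, and the ends of the rows in a pair lay 85.5 to 85.8 kb apart. Besides the member rows, 9 rows of this interval were described as HoxA genes but carry symbols beginning with LOC, so the rule does not take them. Reads can match both rows of a pair, and how the authors assigned them is not given in the sources used here, so the values of both Hoxa11 rows and of Hoxa7 are uncertain. With both Hoxa11 rows summed before the fit, an alternative chosen after seeing the data, the log2 change was -0.87 ± 0.06 (edgeR adjusted p = 9.72e-07). LOC100909604, described as homeobox A6, spans the longer Hoxa11 row and Hoxa13, and AABR07073021 overlaps that Hoxa11 row on the opposite strand.

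The 9 rows described as HoxA genes included 2 abundant rows. Both rows described as Hox-A10-like fell: LOC100911668 from 71.6 ± 5.10 to 47.4 ± 0.600 CPM (log2 change -0.59, edgeR adjusted p = 3.93e-05) and LOC100912608 from 79.4 ± 2.85 to 50.5 ± 1.29 CPM (-0.65, edgeR adjusted p = 8.46e-06). Per length these were at 25.3 FPKM (LOC100911668) and 19.6 FPKM (LOC100912608) in Control, the former within the range of the Hoxa11 rows and the latter under it. LOC103692128, described as Hox-A9, fell from 3.82 ± 0.673 to 2.48 ± 0.234 CPM (-0.62, edgeR adjusted p = 0.0246). The other 6 rows did not pass, so among these 9 rows 3 (33.3%) were lower and none was higher. Over all genes tested, 28.8% were lower and 31.5% higher, so the share of lower calls was near the background. The 3 lower rows are of paralogues 9 and 10. They include the Hox-A10-like pair of the repeated stretch, where reads can match both rows.

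In HoxC, Hoxc4 rose and 4 rows fell. Hoxc4 (chr7:144647587-144650129), at the low-numbered end of the cluster, was at 0.690, 1.25 and 1.14 CPM in Control and at 2.54, 2.61 and 3.33 CPM with rShh, with the groups apart and a log2 change of 1.46 ± 0.29 (edgeR adjusted p = 0.00156). It remained low, at 1.15 ± 0.184 FPKM with rShh. Hoxc5 next to it was at 1.02 ± 0.58 on the log2 scale and did not pass (edgeR adjusted p = 0.156), but passed without Control replicate 2 (1.77, edgeR adjusted p = 0.0307); Mir615 lies inside it.

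Hoxc12 (chr7:144547939-144549537), the Hox row with the highest mean FPKM, went from 27.8, 35.7 and 36.9 CPM to 25.4, 19.8 and 21.0 CPM. The groups were apart by the gap between Control replicate 1 and rShh replicate 1, and the log2 change was -0.60 ± 0.13 (edgeR adjusted p = 0.00216). Hoxc10 (chr7:144577465-144582622), a gene of hindlimb and lumbar identity, went from 24.7, 27.1 and 23.8 CPM to 21.4, 22.8 and 20.0 CPM, a small log2 change of -0.23 ± 0.09 (edgeR adjusted p = 0.0454). Hoxc9 (chr7:144595960-144598632), a thoracic gene, went from 1.93, 3.56 and 3.27 CPM to 1.60, 1.88 and 1.92 CPM, with Control replicate 1 only just above the rShh libraries and a log2 change of -0.69 ± 0.27 (edgeR adjusted p = 0.0479). Hoxc8 (chr7:144605058-144608538) went from 3.52, 2.42 and 1.66 CPM to 1.47, 1.15 and 0.672 CPM, a log2 change of -1.21 ± 0.37 (edgeR adjusted p = 0.0175).

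Of the 14 called Hox rows, these 3 rows (Hoxc8, Hoxc9 and Hoxc10) did not keep their calls under every alternative. Hoxc8 lost its call without Control replicate 1 (-0.90, edgeR adjusted p = 0.0671) and without rShh replicate 3 (-0.95, adjusted p = 0.0598). Hoxc9 lost it in 9 of 14 alternatives, among them without Control replicate 2 (adjusted p = 0.16), Control replicate 3 (0.119), rShh replicate 1 (0.133), rShh replicate 2 (0.0927) and rShh replicate 3 (0.0845), all by edgeR. Hoxc10 lost it in 7 of 14, among them without Control replicate 2 (edgeR adjusted p = 0.145), rShh replicate 1 (0.106) and rShh replicate 3 (0.164). The direction of all 3 was kept in each.

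The remaining HoxC rows did not pass. Hoxc11 was at 8.27, 10.6 and 14 CPM in Control and at 10.6, 8.33 and 11.3 CPM with rShh, so its groups overlapped, and its log2 change was -0.12 ± 0.19. Hoxc13, best known for its part in hair and nail keratins, was at 3.22, 5.98 and 5.36 CPM and at 4.25, 3.84 and 3.33 CPM, with a log2 change of -0.35 ± 0.24 (edgeR adjusted p = 0.224). Control replicate 1 was the low library here, and without it Hoxc13 passed (-0.58, edgeR adjusted p = 0.0172), as did Hoxc6 (-0.69, adjusted p = 0.0231, against -0.46 and 0.162 with all libraries).

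In HoxB, Hoxb7 rose and Hoxb9 and Hoxb13 fell. Hoxb13 (chr10:84031955-84034228), at the high-numbered end and known from tail and prostate, went from 7.34, 7.51 and 7.08 CPM to 3.35, 3.19 and 4.03 CPM, with the groups far apart and a log2 change of -1.05 ± 0.15 (edgeR adjusted p = 1.91e-04). Hoxb9 (chr10:84119884-84123390), the HoxB row with the highest FPKM, went from 14.4, 15.4 and 15.0 CPM to 10.6, 9.34 and 10.8 CPM, also apart, at -0.54 ± 0.11 (edgeR adjusted p = 0.00136). Hoxb7 (chr10:84135116-84138637), in the middle of the cluster, went the other way, from 5.87, 8.57 and 6.07 CPM to 12.4, 9.90 and 10.8 CPM. Control replicate 2 and rShh replicate 2 were its nearest libraries, and its log2 change was 0.69 ± 0.17 (edgeR adjusted p = 0.00503). Mean FPKM of Hoxb7 went from 4.34 ± 0.930 to 7.03 ± 0.685 and that of Hoxb9 from 13.3 ± 0.322 to 9.19 ± 0.630.

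The other 6 HoxB rows did not pass. Hoxb2, a hindbrain gene, was at 6.61, 12.2 and 11.4 CPM in Control and at 7.46, 10.0 and 6.32 CPM with rShh, with overlapping groups and a log2 change of -0.34 ± 0.24 (edgeR adjusted p = 0.24), and it passed without Control replicate 1 (-0.57, adjusted p = 0.0207). Hoxb3 was at 10.5, 15.5 and 10.9 CPM and at 13.1, 14.9 and 12.0 CPM, at 0.11 ± 0.16. Hoxb4 was at 0.919, 0.950 and 0.848 CPM and at 1.21, 1.68 and 1.25 CPM, so the groups were apart, but the log2 change of 0.61 ± 0.32 did not pass (edgeR adjusted p = 0.13). Hoxb5 (-0.38), Hoxb6 (-0.24) and Hoxb8 (-0.14) completed the cluster, with adjusted p of 0.245 to 0.684 by edgeR.

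**Figure D4:**
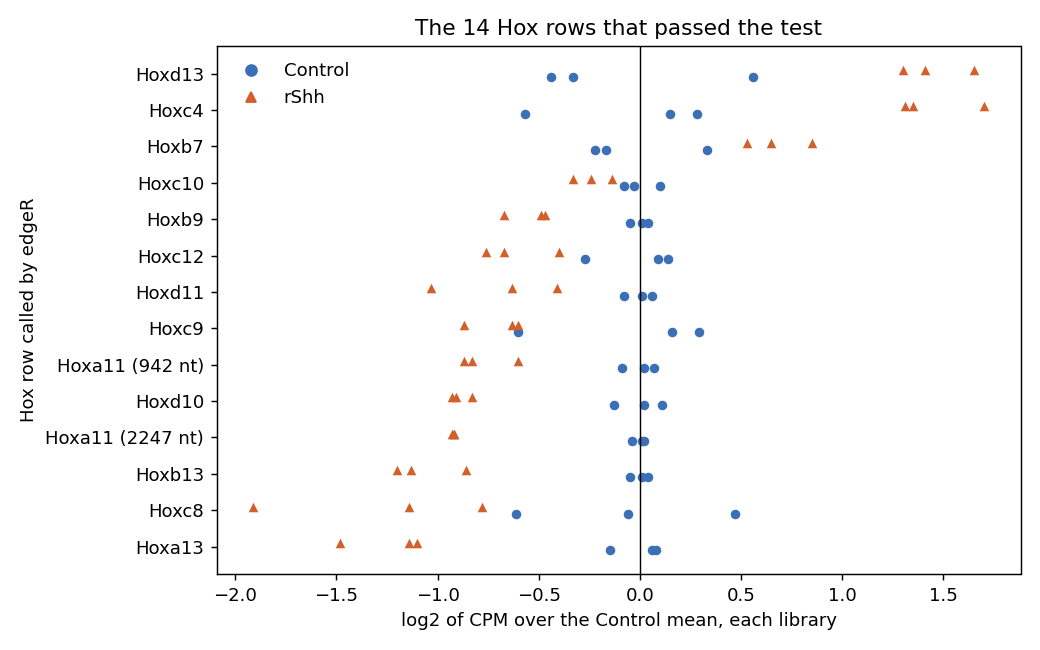
Log2 of CPM over the mean of the Control libraries for the 14 Hox rows that passed edgeR's test, in each of the 6 libraries (circles Control, triangles rShh), sorted by the fitted log2 change. The rShh points of Hoxd13, Hoxc4 and Hoxb7 lie right of all Control points and those of the other 11 rows lie left, with the Hoxc9 groups touching near -0.60.

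Set side by side by paralogue number, members of the same number did not all move alike. At number 13, Hoxa13 (-1.23) and Hoxb13 (-1.05) fell, Hoxd13 (1.46) rose and Hoxc13 (-0.35) did not pass, and their summed FPKM went from 18.2 ± 1.04 to 11.8 ± 0.205. At number 11, both Hoxa11 rows and Hoxd11 fell and Hoxc11 did not pass, with a sum of 69.0 ± 3.86 FPKM in Control and 42.9 ± 3.47 FPKM with rShh. At number 9, Hoxb9 and Hoxc9 fell and Hoxd9 did not pass, and at number 10 both rows, Hoxc10 and Hoxd10, fell. At number 4, Hoxc4 rose and Hoxa4, Hoxb4 and Hoxd4 did not pass, and the sum went from 1.93 ± 0.225 to 2.67 ± 0.164 FPKM. At least a 2-fold change with a call was seen in 5 Hox rows (Hoxa13, Hoxb13, Hoxc4, Hoxc8 and Hoxd13), against 18.7% of all genes tested. The spread between replicates was wider in the Hox rows than over all genes: the median coefficient of variation was 24.1% in Control and 13.5% with rShh, against 11.4% and 6.9% over all genes tested. Counting error is larger in low rows, and the part of level in this difference was not tested.

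The isoform table had 34 Hox rows, of which 32 were tested, 3 higher and 8 lower by edgeR, against a background of 23.8% higher and 21.3% lower.

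Genes around the clusters were read from the same fit, within 250 kb of the outermost members. Of 16 tested rows other than those described as HoxA genes, 3 were higher, 9 were lower and 4 did not pass. That is 18.8% higher and 56.2% lower, against 31.5% and 28.8% of all genes tested. The rows are few, and a relation to the clusters was not tested. Beside HoxD, Lnpk, an endoplasmic reticulum shaping gene on the Hoxd13 side of the cluster, rose from 12.2 ± 1.9 to 32.5 ± 2.54 CPM (log2 change 1.42 ± 0.12, edgeR adjusted p = 4.77e-06). Mtx2, a mitochondrial import gene on the Hoxd3 side, fell from 36.3 ± 1.01 to 30.9 ± 3.02 CPM (-0.23 ± 0.09, edgeR adjusted p = 0.0406). Beside HoxA, Skap2, at the low-numbered end, had 24.2 ± 2.96 CPM in Control and 27.8 ± 1.74 CPM with rShh (edgeR adjusted p = 0.115). AABR07060585, an unnamed row just past the 942-nt Hoxa11 row, fell from 16.4 ± 0.802 to 12.4 ± 1.32 CPM (-0.40 ± 0.11, edgeR adjusted p = 0.00954). It lies by that row as AABR07073021 lies by the longer Hoxa11 row, both on the strand opposite to Hoxa11. Whether AABR07060585 and AABR07073021 are a further pair of the repeated stretch, with reads that match both, was not tested. Beside HoxC, Smug1, a DNA repair glycosylase on the Hoxc4 side, fell from 22.3 ± 1 to 17.2 ± 1.06 CPM (-0.38 ± 0.09, edgeR adjusted p = 0.00468), and LOC100912282 on the Hoxc13 side fell from 37.7 ± 8.03 to 21.9 ± 1.42 CPM (-0.78 ± 0.14, edgeR adjusted p = 7.83e-04). Farther out on the Hoxc4 side, Cbx5 (0.59 ± 0.09, edgeR adjusted p = 3.55e-04) and Hnrnpa1 (0.44 ± 0.06, adjusted p = 8.54e-05) rose. Beside HoxB, the 4 tested rows all fell, all of them on the Hoxb13 side, where the nearest named row, Ttll6, was too low to test. Inside the clusters, AABR07073021 of HoxA (14.1 ± 0.912 and 12.3 ± 1.09 CPM) and an AABR07058934 row of HoxC (0.362 ± 0.0682 and 0.298 ± 0.115 CPM) did not pass. The microRNA rows of the clusters, such as Mir196a and Mir10a, had few counts in these poly(A) libraries and none was tested.

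The partners of Hox proteins and the machinery that keeps Hox genes on or off were read from the same fit, in which 60.3% of all genes passed. The share that passed in either direction was 44.4% for the TALE cofactors, and 54.5% and 58.8% for Polycomb repressive complexes 2 and 1. It was 58.3% for upstream regulators and 75.0% for the opposing histone enzymes. With both directions counted together, only the last was above the background. Of 9 TALE cofactor genes, which encode homeodomain proteins that bind DNA with Hox proteins, 1 was higher and 3 were lower, with a median log2 change of 0.02. Pbx2 fell from 49.0 ± 1.3 to 32.2 ± 1.65 CPM (log2 change -0.60, edgeR adjusted p = 4.02e-05) and Meis3 from 22.8 ± 2.92 to 11.6 ± 0.802 CPM (-0.98, adjusted p = 5.00e-05). Meis1, another cofactor gene, had 92.3 ± 5.76 CPM in Control and 84.4 ± 2.34 CPM with rShh and no call.

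Of 11 genes of Polycomb repressive complex 2, which methylates histone H3, 6 were higher (54.5%) and none was lower. Over all genes tested, 31.5% were higher and 28.8% lower. The median log2 change for this complex was 0.54, against 0.01 over all genes. Ezh2, its catalytic subunit, rose from 13.5 ± 1.95 to 31.4 ± 2.38 CPM (1.22, edgeR adjusted p = 1.15e-05). Suz12, a core subunit, rose from 14.5 ± 3.59 to 30.9 ± 1.91 CPM (1.09, adjusted p = 2.02e-04), and Rbbp7, a histone-binding subunit, from 134 ± 6.79 to 213 ± 9.53 CPM (0.67, adjusted p = 6.35e-06). Of 17 genes of Polycomb repressive complex 1, 4 were higher and 6 lower, at a median of 0.11. Its ubiquitin ligases went opposite ways, Ring1 from 46.2 ± 4.44 down to 29.2 ± 0.728 CPM (-0.66, edgeR adjusted p = 7.04e-05) and Rnf2 from 46.6 ± 2.04 up to 61.3 ± 1.03 CPM (0.40, adjusted p = 3.57e-04), and Cbx8, a chromodomain subunit, fell from 15.6 ± 1.29 to 8.17 ± 1.48 CPM (-0.93, adjusted p = 2.77e-04).

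Among 12 genes of the opposing histone methyltransferases and demethylases, 3 were higher and 6 lower, with a median log2 change of -0.17. Men1, which encodes menin, fell from 57.3 ± 3.74 to 29.0 ± 1.51 CPM (-0.98, edgeR adjusted p = 2.51e-06). Kdm6b, a histone H3 demethylase, fell from 43.0 ± 1.55 to 31.5 ± 1.56 CPM (-0.45, adjusted p = 3.62e-04), and Psip1, a chromatin reader that partners with menin, rose from 34.0 ± 3.03 to 54.4 ± 1.06 CPM (0.68, adjusted p = 4.03e-05). Of 12 tested genes known to act upstream of Hox transcription, 2 were higher and 5 lower, at a median of -0.23. Gdf11, a ligand that promotes high-numbered Hox genes in the embryo, fell from 49.5 ± 3.28 to 26.6 ± 1.64 CPM (-0.89, edgeR adjusted p = 6.95e-06). The retinoic acid receptor gene Rarg fell from 140 ± 6.76 to 84.7 ± 3.38 CPM (-0.72, adjusted p = 3.84e-06). Egr2, a hindbrain regulator of Hox genes, rose from 0.936 ± 0.520 to 20.5 ± 1.67 CPM (4.46, adjusted p = 1.48e-06). A relation between these genes and the Hox rows was not tested.

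Other differences between the groups lay beside all of these results. Total counts were 50758195 to 55501124 in Control and 65116846 to 70031072 in rShh libraries, and mitochondrial genes took 1.97% to 2.28% and 3.25% to 3.36% of counts. In addition, 4 rows of the Y chromosome had 0 counts in every Control library and 912 to 7120 in the rShh libraries, so the groups differed in this as well as in treatment, and they cannot be told apart. Of 13 nucleus pulposus markers, 10 were found and 9 tested, 3 higher and 5 lower, with a summed level of 92.6 to 98.1 FPKM in Control and 170 to 173 FPKM with rShh. The rise of the sum came from Acan, the main disc proteoglycan, at 6.80 ± 0.905 and 71.0 ± 1.11 FPKM, and Hif1a, at 16.5 ± 1.7 and 53.5 ± 2.75 FPKM. Among those that fell were Krt8 (log2 change -2.58), Foxa2 (-1.83) and Cd24 (-1.73), while the defining marker Krt18 was near 0 in both groups, Col2a1 was at 0.296 ± 0.0221 and 0.0183 ± 0.0245 FPKM and Sox9 was at 0.571 ± 0.0797 and 1.15 ± 0.0680 FPKM. Markers of other cell types moved too. The 5 osteoblast markers summed to 4.54 to 5.91 FPKM in Control and 51.8 to 55.5 with rShh. That rise came mostly from Ibsp, at 0.587 ± 0.266 and 48.9 ± 1.78 FPKM. Runx2 (log2 change 0.71) was also higher, Alpl (-1.09) was lower, and Sp7 and Bglap were near 0. The 4 Schwann and neural markers found summed to 184 to 199 and 43.7 to 47.4 FPKM, mostly S100b and Tubb3. The 5 annulus and tendon markers summed to 119 to 161 and 132 to 148 FPKM, with Scx and Fmod lower and Egr1, Thbs4 and Mkx higher. Skeletal muscle (3 found, up to 3.05 FPKM), endothelial (2 found, up to 1.25 FPKM), macrophage and leukocyte (3 found, up to 1.01 FPKM) and epithelial markers (2 found, up to 0.144 FPKM) had low sums in every library. The part of these differences in the Hox values was not tested.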

How the data were processed

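Deposited gene and isoform tables held, for each of 6 libraries, whole-number counts that the authors had not normalized and FPKM values that the authors had scaled to length and depth, per the file headers. Per the submitters' processing notes the tools were StringTie 1.3.4d, HISAT2 2.0.4, cutadapt 1.9, edgeR and DESeq2. The sources used here do not give their roles, the strand setting or the build. Libraries were made from RNA selected with oligo(dT), with dUTP marking of the second strand, per the labels' protocols.

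Counts were fitted over the whole table with edgeR 4.0.16 in R 4.3.3 (filterByExpr with minimum count 10, TMM, glmQLFit and glmQLFTest, two-sided, group as the only term), which left 14775 genes and 18180 isoforms. P-values were adjusted by Benjamini-Hochberg over each table, with a threshold of 0.05. CPM are TMM-scaled, errors of levels are SD (n = 3) and errors of log2 changes are SE. The common biological coefficient of variation was 12.7%. Replicates differed by far more than sampling noise, and each counted as its own sample. That difference cannot show whether they are separate animals or cultures. The fit was tested on simulated data, with far fewer changed genes than were called here and a single spread for all genes. There edgeR recovered 64% of 1.5-fold and 90% of 2-fold changes of genes, with 4.32% of its calls false. Such a setting cannot show how the fit does on the Hox rows.

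Per-sample values are given in each cluster for the 4 rows with the highest mean FPKM and the 3 called rows with the largest log2 change, and Hoxb4 was added after its values were seen. Some genes that this rule takes are counted but not reported singly here. In each pathway list up to 3 genes with the smallest p are named, and Meis1 was added after its values were seen, as were the cell type markers given by name. The members, lists and tests were chosen with earlier results of these data known. Alternatives were DESeq2 1.42.0, median-ratio scaling, no filter, limma 3.58.1 on log2(FPKM + 1) or log2(FPKM + 0.1), a replicate block and leaving out each library. Chosen after seeing the data were the sum of both Hoxa11 rows and the addition of rows described as HoxA genes. Promoters came from RefSeq (GRCr8).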

Additional observations from a re-analysis of the deposited data

How the results depend on the processing

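Over all alternatives, 2 to 4 Hox rows were higher and 8 to 13 lower. The count of 2 higher came from limma at a mean of at least 1 FPKM. That setting tested 23 Hox rows and left out the called rows Hoxc4 and Hoxc8. Leaving out single libraries gave 3 to 4 higher and 8 to 13 lower. Of the 14 called rows, 11 kept direction and call under every setting that tested them, and none reversed. The exceptions were Hoxc8, Hoxc9 and Hoxc10. Of the 18 rows not called, 5 passed under at least 1 setting, among them Hoxb4 by limma on log2(FPKM + 1) with no filter (0.22, adjusted p = 0.0434). The log2 ratio of summed HoxA FPKM was -0.84, and -0.69 with the rows described as HoxA genes added; the cause of that shift is the added rows themselves.

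Deviations of same-numbered samples had correlations of -0.075, -0.01 and -0.009, against -0.059 to 0.068 for samples of different number. No sample correlated best with the sample of its own number. Correlations this small cannot show whether the numbers pair the samples. The 4 Y-chromosome rows, at 0 counts in every Control library and 912 to 7120 in the rShh libraries, differed between the groups at every number. A shared animal or culture was not tested. The fit with a replicate block called 3 Hox rows higher and 9 lower.

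Among the rows given here, reversals touched only those that were not called and came from leaving out single libraries. The log2 change then ranged from -0.42 to 0.21 for Hoxa7, from -0.33 to 0.03 for Hoxb8 and from -0.29 to 0.10 for Hoxc11. The cause was not tested. Counting error limits the rows under 1 FPKM most.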
